A study of Mus musculus with 48 samples.

Results

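The endoplasmic reticulum (ER) entry and folding machinery was followed here through 37 genes, chosen by symbol, out of 47643 genes in the count files. They comprised 5 genes of the translocation channel, 4 of the translocon-associated complex, 5 of the signal recognition particle, 6 of the oligosaccharyltransferase, 5 of the signal peptidase, 8 chaperones and disulfide isomerases, and 4 stress sensors and J proteins. Each symbol matched 1 Ensembl identifier. The rule matched names; the list itself was drawn up with earlier results of these data known.

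The mRNAs came from the dorsal hippocampus of mice of the strain Tg(Aldh1l1-eGFP/Rpl10a) JD130Htz, in which the astrocyte gene Aldh1l1 drives an eGFP-tagged ribosomal protein L10a. Ribosomes carrying the tag were pulled down with an antibody to GFP (translating ribosome affinity purification, TRAP), so that the mRNAs on them could be sequenced. The 3 animals each gave a library of full astrocytes (Astro) and a library of perisynaptic astrocytic processes (PAP), the fine processes of these cells that lie against synapses, and each library was deposited as 8 technical replicates, 48 count files in all. All 6 libraries carried the transgene, and the labels give no treatment, age or sex. The tag is limited to cells in which the Aldh1l1 promoter is active, and replicates are animals, so the p-values measure the spread between animals. The comparison asked which of these mRNAs differed in relative abundance between the processes and the whole cell.

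Summed over technical replicates, total counts were 20293538, 18707844 and 19503504 in Astro and 1829962, 1833201 and 2980984 in PAP; all values below are in the order animal 1, 2 and 3. A limit of 3 counts, the most that a count of 0 allows, corresponded to between 0.991 and 1.55 CPM (counts scaled to the size of the library, with TMM factors) in PAP and between 0.152 and 0.176 CPM in Astro, for counting error alone. The PAP libraries also differed more among themselves, with a biological coefficient of variation of 1.58 over all genes against 0.334 in Astro. The astrocyte markers were lower in PAP in sum: the level of 13 markers together was 33800, 28100 and 24900 CPM in Astro and 3810, 8850 and 14800 CPM in PAP, and 6 of the 13 passed the test as lower, none of them with the animal as a block. S100b overlapped between the groups, and Fgfr3 was at 0 in the PAP library of animal 1. Aldh1l1 itself, the gene whose promoter drives the tag, stood at 232, 224 and 250 CPM in Astro and 50, 83.5 and 110 CPM in PAP (log2 fold change -1.53, edgeR adjusted p = 0.0377, and 0.206 with the animal as a block), a call that was also lost with library size alone in place of TMM. Over the 6 libraries, the sums ran from 527 to 1700 CPM for neuronal markers and from 498 to 1120 CPM for oligodendrocyte markers. Of the 12 neuronal markers, Syt1 was called higher in PAP (log2 fold change 1.4, edgeR adjusted p = 0.0414) and Snap25 lower (-2.22, edgeR adjusted p = 0.0296), neither with the block; Camk2a and Grin1 had every PAP library above Astro without passing, and Map2, Tubb3 and Gad2 every PAP library below. The part of these markers in the results was not tested. Microglial markers summed to 51.9, 42.3 and 23.2 CPM in Astro and 31.1, 29.9 and 21.5 CPM in PAP; 5 of the 8 were at 0 in every PAP library, while C1qa and C1qb had higher means in PAP. Endothelial markers were low in both compartments but summed higher in PAP, to 24.5, 15.5 and 14.9 CPM against 5, 4.52 and 5.08 CPM. Among them Ly6c1 was above Astro in every PAP library without passing (edgeR adjusted p = 0.09), and Cldn5 and Cdh5 were at 0 in PAP and at most 1.64 CPM in Astro.

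A further marker list stood apart. The 19 genes of B lineage and plasma cells, antibody-secreting cells with an expanded ER, summed to 99.4, 63 and 103 CPM in Astro and to 9330, 6400 and 4070 CPM in PAP. Of these 19 genes, 13 were tested, 10 passed as higher in PAP and 1 as lower, and 6 were still called higher with the animal as a block. The most abundant was Igkc, the immunoglobulin kappa constant region, at 25.8, 20.3 and 23.7 CPM in Astro and 2620, 1740 and 1250 CPM in PAP. Jchain, which joins antibody polymers, stood at 20.4, 11 and 16 CPM and at 2520, 1200 and 1100 CPM. The heavy chain gene Ighg1 stood at 11.1, 7.16 and 10.6 CPM in Astro and 1220, 1290 and 484 CPM in PAP, and Ighg2b and Ighg2c were also called higher, whereas Ighm and Igha were at 0 in all 3 PAP libraries. The B cell marker Cd79b was at 41.3, 13.9 and 1.98 CPM in PAP and at most 0.645 CPM in Astro, without passing (edgeR adjusted p = 0.0842), and Cd79a was at 0 in PAP and at most 0.117 CPM in Astro. These markers were higher in the same libraries as the genes called higher below, though not in the same order of animals for most of them, and their part in those results was not tested.

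Proteins bound for secretion, the plasma membrane or the ER itself carry a signal sequence that the signal recognition particle reads as it leaves the ribosome. The ribosome is brought to the Sec61 channel, through which the chain is threaded; the translocon-associated complex sits beside the channel, the signal peptidase cuts the signal off, the oligosaccharyltransferase adds N-glycans, and chaperones and disulfide isomerases fold the product. When unfolded proteins build up, the sensors Ire1 (encoded by Ern1), Atf6 and Perk start the unfolded protein response, which raises the transcription of many of these genes. Astrocytes use this route for transporters, connexins, adhesion proteins and secreted factors.

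Sequences from the promoters show which members carry the element through which this response is best known to act. The ER stress response element (ERSE) has the letters CCAAT and CCACG with any 9 bases between them; NF-Y binds the CCAAT letters and Atf6 the CCACG letters. Of the 37 members, 30 had an entry in the RefSeq promoter table (GRCm38.p6; windows from 250 bases before to 50 bases after a transcription start), and 6 of these 30 held the element on either strand, against 37 of 27025 genes (0.137%) with a window of the same length. The 6 are shown because they include the best studied targets of the response, and their values between animals are given below. The capitals mark the CCAAT and CCACG letters, and each sequence runs 5′ to 3′ on the strand that carries the motif, with 5 flanking bases on each side.

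Hspa5 (chr2:34772020-34772048, plus strand): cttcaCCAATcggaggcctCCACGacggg
Hsp90b1 (chr10:86705633-86705661, minus strand): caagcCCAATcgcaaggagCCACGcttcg
Hsp90b1 (chr10:86705528-86705556, plus strand): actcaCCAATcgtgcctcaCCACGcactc
Calr (chr8:84847070-84847098, plus strand): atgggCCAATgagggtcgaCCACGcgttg
Canx (chr11:50325795-50325823, minus strand): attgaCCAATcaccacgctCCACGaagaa
Pdia6 (chr12:17266486-17266514, plus strand): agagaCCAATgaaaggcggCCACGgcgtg
Dnajc3 (chr14:118937822-118937850, plus strand): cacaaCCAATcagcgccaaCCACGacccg

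Hsp90b1 held the element at 2 places, on opposite strands. In Hspa5 the 19 letters lay between 65 and 47 bases before the RefSeq start. The related element ERSE-II, ATTGG and CCACG with any 1 base between them, was found in no member and in 12 of 32851 windows (0.0365%). Only exact matches inside the window were counted. A match is a run of letters in a window and says nothing about binding in these cells.

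Across the 37 members, all of which passed the filter on low counts, 5 were higher in PAP, none was lower and 32 did not pass the test (edgeR quasi-likelihood test, Benjamini-Hochberg adjusted p under 0.05 over 14618 genes). The 5 were the disulfide isomerase P4hb, the translocon-associated subunits Ssr1 and Ssr4, the signal recognition particle subunit Srp9 and the signal peptidase subunit Sec11c. Over all tested genes 5.92% were called higher and 15.4% lower in PAP; among the 9973 genes with a mean of at least 10 CPM, a level that all 37 members reached, the shares were 6.95% and 6.72%. Thus 13.5% of the members were called higher. At an unadjusted p under 0.05, 10 members were higher and none was lower, against 9.39% and 21.5% of all tested genes. DESeq2 called 10 members higher and 1 lower, Srp14, against 11.8% and 24.2% of the genes it tested.

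The median log2 fold change of the members was 0.33, with a range from -1.20 to 4.04, while that of all tested genes was -0.53 and that of the tested genes with a mean of at least 10 CPM was -0.26. Of the members, 26 had a positive and 11 a negative value. In 10 members every PAP library was above every Astro library, which held for 10.9% of all tested genes, and in 2 members every PAP library was below, which held for 35.1%. These shares, like those for the unadjusted p and DESeq2, include genes below 10 CPM, a level that all 37 members reached. Shares among the genes of at least 10 CPM were not taken for these counts. Of all counts in a library, the 37 genes together took 0.442%, 0.542% and 0.35% in Astro and 0.776%, 0.699% and 0.664% in PAP. The ranges of that share did not overlap between the groups.

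The higher calls depended on the fit. With the animal as a block, 0.91% of all tested genes were called in either direction and no member was, with adjusted p between 0.14 and 0.206 for the 5 genes. Without the Astro library of animal 1, 0.889% of tested genes were called, without that of animal 2, 0.993%, and without that of animal 3, 1.09%, again with no member in any of the 3 fits; without the PAP library of animal 1, 2 or 3, in turn, 6, 4 and 7 members were called higher, against 5.75%, 6.74% and 7.57% of the genes tested. Under limma voom with weights for each group, which lets the PAP libraries have their own spread, Ssr1 was the 1 member called higher, against 4.13% of all tested genes. These are bulk pull-downs, in which fewer cells of a type and less RNA per cell cannot be told apart.

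**Figure D1:**
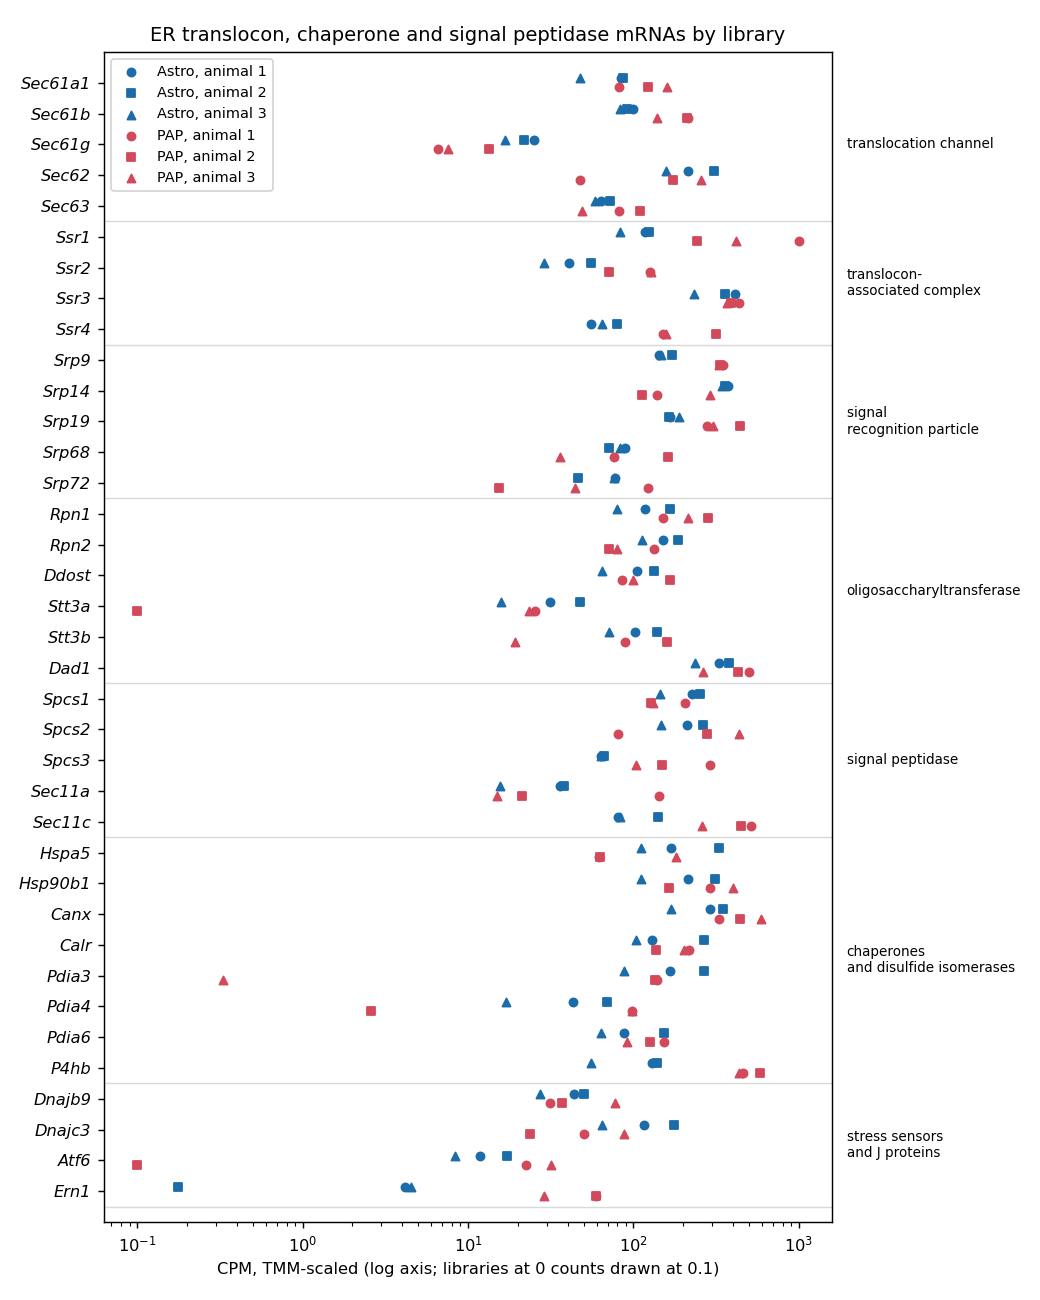
Level of each of the 37 mRNAs (CPM, log axis) in the 3 Astro libraries (blue) and the 3 PAP libraries (red), with a marker shape for each animal and the genes ordered by role; libraries at 0 counts are drawn at 0.1. All 3 red symbols lie to the right of the blue ones for Ssr1, Ssr4, Srp9, Sec11c and P4hb, which were called higher. They also do for Sec61b, Ssr2, Srp19, Spcs3 and Ern1, which did not pass. For Sec61g and Srp14, which did not pass either, all 3 lie to the left of the blue ones.

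Of the 4 genes of the translocon-associated complex, 2 were called higher in PAP, neither with the block. In all 4 the PAP value was above the Astro value in each of the 3 animals. This held for 14 of the 37 members and for 12.6% of all tested genes, at any level. Its summed level was 623, 618 and 407 CPM in Astro and 1710, 1020 and 1070 CPM in PAP, and the median log2 fold change of its 4 genes was 1.51. The B lineage and plasma cell sum, at most 103 CPM in Astro and at least 4070 CPM in PAP, was highest in the same PAP library as this sum, that of animal 1. Ssr1, which encodes the alpha subunit, stood at 117, 124 and 82.4 CPM in Astro and at 1000, 243 and 419 CPM in PAP. The groups did not overlap, and the library of animal 1 was far above the other PAP libraries. The means were 108 ± 22.3 and 554 ± 396 CPM (SD, n = 3) and the difference on the log2 scale was 2.36 ± 0.57 (SE; edgeR adjusted p = 0.0298, and 0.206 with the animal as a block). Without the PAP library of animal 1 it was 1.57 (edgeR adjusted p = 0.0361).

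Ssr4, the delta subunit, stood at 55.6, 79.3 and 64.5 CPM in Astro and at 151, 316 and 158 CPM in PAP. Here the library of animal 2 was the highest in both compartments, and all PAP values were above all Astro values. The log2 fold change was 1.65 ± 0.44 (edgeR adjusted p = 0.0432, 0.206 with the block and 0.0618 without the PAP library of animal 2), with means of 66.5 ± 12 and 208 ± 93.3 CPM. Ssr2, the beta subunit, stood at 40.7, 55.4 and 28.9 CPM against 126, 71.1 and 127 CPM, also without overlap, and did not pass (1.37 ± 0.52, edgeR adjusted p = 0.126). Ssr3, the gamma subunit and the most abundant of the 4 per kilobase in Astro (197 CPM per kilobase of exon), stood at 410, 359 and 231 CPM against 437, 388 and 366 CPM. Its groups overlapped, with a log2 fold change of 0.25 ± 0.30 (edgeR adjusted p = 0.662). The subunits of this complex therefore spanned log2 values from 0.25 to 2.36.

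In the translocation channel none of the 5 genes passed, and the median log2 fold change was 0.31. Sec61b, a small subunit of the channel and the most abundant of these genes per kilobase in Astro (179), stood at 100, 90.8 and 83.5 CPM in Astro and at 214, 210 and 138 CPM in PAP. Every PAP value was above every Astro value, and the difference of 1.03 ± 0.35 missed the threshold (edgeR adjusted p = 0.0947); DESeq2 called it. Of its exonic 50-base words, 41.0% also occur in 3 other genes, so its counts are uncertain. Sec61g, the other small subunit, went the opposite way, with 25.1, 21.7 and 16.8 CPM in Astro and 6.63, 13.4 and 7.6 CPM in PAP. Those groups did not overlap either, but at these low levels the log2 fold change was -1.20 ± 0.80 (edgeR adjusted p = 0.398), and 20.5% of its 50-base words occur in 5 other genes. The pore-forming subunit Sec61a1 had a log2 fold change of 0.73 ± 0.48. Sec62 and Sec63, which assist the import of completed chains, had -0.51 ± 0.63 and 0.31 ± 0.50.

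Of the 5 signal recognition particle genes 1 was called higher. The log2 fold change was positive in 3 and negative in 2, and differences between the subunits were not tested. Srp9 stood at 143, 171 and 146 CPM in Astro and at 346, 335 and 330 CPM in PAP. This was the tightest PAP triplet of the called genes, with means of 153 ± 15.6 and 337 ± 8.25 CPM and a log2 fold change of 1.14 ± 0.26 (edgeR adjusted p = 0.0254, and 0.206 with the block). For Srp9, 15.5% of the 50-base words occur in 1 other gene and 14.1% of the exonic bases overlap another gene on the opposite strand.

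Srp14 encodes the protein that pairs with Srp9 in the Alu domain of the particle, the part that slows elongation. It had the highest level per kilobase of all members in Astro (747) and stood at 371, 360 and 345 CPM there, against 138, 112 and 291 CPM in PAP. Every PAP value was below every Astro value, while the difference of -0.99 ± 0.42 did not pass (edgeR adjusted p = 0.169). It was called lower in 2 of 15 other settings, with DESeq2 and without the PAP library of animal 3 (-1.59, edgeR adjusted p = 0.019). Srp9 and Srp14 thus had log2 fold changes of opposite sign, each the same way in all 3 animals; the difference between the genes was not tested. Srp19, which binds the RNA of the particle, stood at 166, 164 and 189 CPM against 280, 440 and 302 CPM, without overlap (0.98 ± 0.30, edgeR adjusted p = 0.0663). It was called in 4 of 15 other settings: DESeq2, library size alone, equal depth, and without the PAP library of animal 1. The large subunits Srp68 and Srp72 had log2 fold changes of 0.18 ± 0.62 and -0.13 ± 0.81. Srp72 ranged from 15.5 to 122 CPM over the PAP libraries, and both genes changed sign under other settings.

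The oligosaccharyltransferase genes showed no call in either direction, and their median log2 fold change was -0.01. Dad1, a small subunit and the most abundant of the 6 per kilobase in Astro (198), stood at 331, 378 and 235 CPM in Astro and at 499, 427 and 264 CPM in PAP. It was higher in PAP in each animal but the groups overlapped (0.33 ± 0.35, edgeR adjusted p = 0.613). Rpn1, the subunit also called ribophorin I, was higher in PAP in each animal (0.83 ± 0.43), and Rpn2, ribophorin II, was lower in each (-0.66 ± 0.43); neither passed. Ddost had 0.21 ± 0.48. The catalytic subunits Stt3a, which works beside the channel, and Stt3b, which works after translocation, had -0.95 ± 1.54 and -0.22 ± 0.77. Stt3a, singled out after its values were seen, stood at 31.3, 47.4 and 15.9 CPM in Astro and at 25.5, 0 and 23.5 CPM in PAP: the PAP library of animal 2 held no count.

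Of the 5 signal peptidase genes 1 was called higher, and 4 had positive values, with a median of 0.99. Their sum was 615, 760 and 453 CPM in Astro and 1240, 1020 and 943 CPM in PAP. Sec11c, a catalytic subunit, stood at 80.6, 140 and 82.7 CPM in Astro and at 516, 446 and 259 CPM in PAP. All PAP values were above all Astro values, with means of 101 ± 33.5 and 407 ± 133 CPM and a log2 fold change of 2.01 ± 0.41 (edgeR adjusted p = 0.0208, and 0.199 with the block). Its paralogue Sec11a, the alternative catalytic subunit, was lower in level and erratic in PAP, with 142 CPM in animal 1 against 21.1 and 14.9 CPM in animals 2 and 3, and 36.2, 38 and 15.7 CPM in Astro (0.99 ± 1.03, edgeR adjusted p = 0.615).

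Spcs3, the accessory subunit needed for catalysis, had the closest Astro values of any member, at 64, 66 and 63.7 CPM, and stood at 292, 148 and 104 CPM in PAP. The groups did not overlap, and the difference of 1.49 ± 0.49 missed the threshold (edgeR adjusted p = 0.082). Spcs3 was called in 2 of 15 other settings, with DESeq2 (adjusted p = 0.00288) and without the PAP library of animal 3 (edgeR adjusted p = 0.0327). Spcs1, the most abundant signal peptidase gene per kilobase in Astro (330), stood at 225, 253 and 145 CPM against 206, 127 and 131 CPM. It was lower in PAP in each animal with overlapping groups (-0.42 ± 0.38, edgeR adjusted p = 0.55), and 16.3% of its exonic bases overlap a gene on the opposite strand. Spcs2 ranged from 80.6 to 434 CPM in PAP and had 0.36 ± 0.61.

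**Figure D2:**
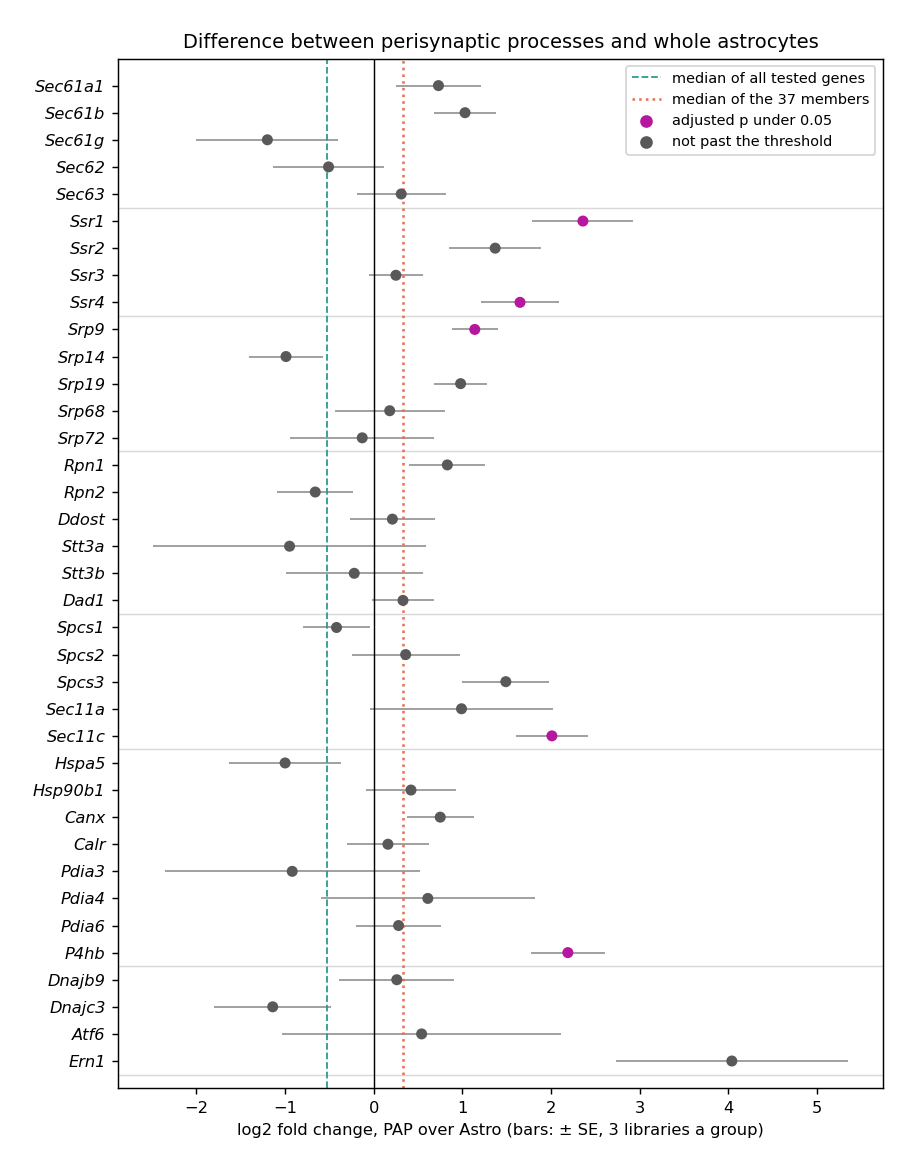
Log2 fold change of each member, PAP over Astro, with bars of 1 SE from edgeR, ordered by role; purple points passed the threshold, the dashed line is the median of all tested genes (-0.53) and the dotted line that of the members (0.33). The 5 purple points lie between 1.14 and 2.36, and Ern1 at 4.04 has a wide bar.

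Among the 8 chaperones and disulfide isomerases 1 gene, P4hb, was called higher and 7 did not pass; the median was 0.35. P4hb encodes protein disulfide isomerase, which forms and rearranges disulfide bonds and is a subunit of collagen prolyl hydroxylase. It stood at 130, 139 and 55.7 CPM in Astro and at 462, 581 and 437 CPM in PAP. The lowest PAP value was above 3 times the highest Astro value, with means of 108 ± 45.8 and 493 ± 76.8 CPM and a log2 fold change of 2.19 ± 0.42 (edgeR adjusted p = 0.0208, and 0.14 with the block). Per kilobase of exon, it had the highest level of all members in PAP (400) and ranked 15 of 37 in Astro (92.3). These ranks rest on all annotated exonic bases. For Sec11c these were 6808 bases against 860 in its longest coding transcript, and for P4hb 2861 in both. Ranks by transcript length were not taken.

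Hspa5, or BiP, the main Hsp70 of the ER and a standard readout of ER stress, stood at 168, 330 and 111 CPM in Astro and at 61.7, 62.4 and 180 CPM in PAP. It was lower in PAP in animals 1 and 2 and higher in animal 3. The groups overlapped, with means of 203 ± 113 and 101 ± 68 CPM and a log2 fold change of -1.0 ± 0.63 (edgeR adjusted p = 0.368). It was -1.78 without the PAP library of animal 3 (edgeR adjusted p = 0.0719) and -0.43 without the Astro library of animal 2 (edgeR adjusted p = 0.869). Hsp90b1, the ER Hsp90, stood at 215, 311 and 111 CPM against 290, 163 and 400 CPM (0.42 ± 0.51), also with overlap.

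The lectin chaperones Canx and Calr, which hold glycoproteins during folding, were together the most abundant of this group per kilobase in Astro (141 each). Canx stood at 291, 349 and 168 CPM in Astro and 330, 440 and 586 CPM in PAP, higher in each animal but with overlap between groups (0.75 ± 0.38, edgeR adjusted p = 0.256). Calr stood at 130, 266 and 103 CPM against 218, 137 and 201 CPM (0.16 ± 0.46). Its sign was not stable across settings.

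Pdia3 and Pdia4, further disulfide isomerases, each had 1 very low PAP library and were singled out for this after their values were seen. Pdia3, the isomerase that works with Canx and Calr, stood at 166, 268 and 87.3 CPM in Astro and at 139, 135 and 0.33 CPM in PAP, where animal 3 gave 1 count. Pdia4 stood at 43.2, 69.6 and 17 CPM against 98, 2.58 and 98.1 CPM. The low libraries were of different animals. Neither passed (-0.92 ± 1.44 and 0.61 ± 1.21), and Pdia6, with 154, 126 and 91.5 CPM in PAP and no such library, had 0.28 ± 0.48.

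Of the stress sensors and J proteins none passed, and their median was 0.40. Ern1, the kinase and endonuclease that splices Xbp1 mRNA, was low in Astro, at 4.19, 0.176 and 4.52 CPM, and stood at 59.2, 59.3 and 28.7 CPM in PAP. All PAP values were above all Astro values, and the Astro value of animal 2 rested on 3 counts, the limit given above. The log2 fold change of 4.04 ± 1.31 was the largest of any member but missed the threshold (edgeR adjusted p = 0.0799, and 0.231 with the block), whereas DESeq2 called it (adjusted p = 0.000868); over all settings the adjusted p ran from 0.000868 to 0.258.

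Atf6, the membrane-bound transcription factor released by proteolysis in the Golgi, stood at 11.8, 17.1 and 8.33 CPM in Astro and at 22.5, 0 and 31.7 CPM in PAP. Its PAP value was above the Astro value in animals 1 and 3 and at no count in animal 2 (0.54 ± 1.57, edgeR adjusted p = 0.875). Dnajc3, an inhibitor of eIF2alpha kinases and co-chaperone of BiP, was the most abundant of this group per kilobase in Astro (56.2), at 116, 175 and 64.3 CPM against 50, 23.7 and 87.9 CPM (-1.14 ± 0.66, edgeR adjusted p = 0.324). Dnajb9, a further J protein of BiP, had 0.26 ± 0.65.

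**Figure D3:**
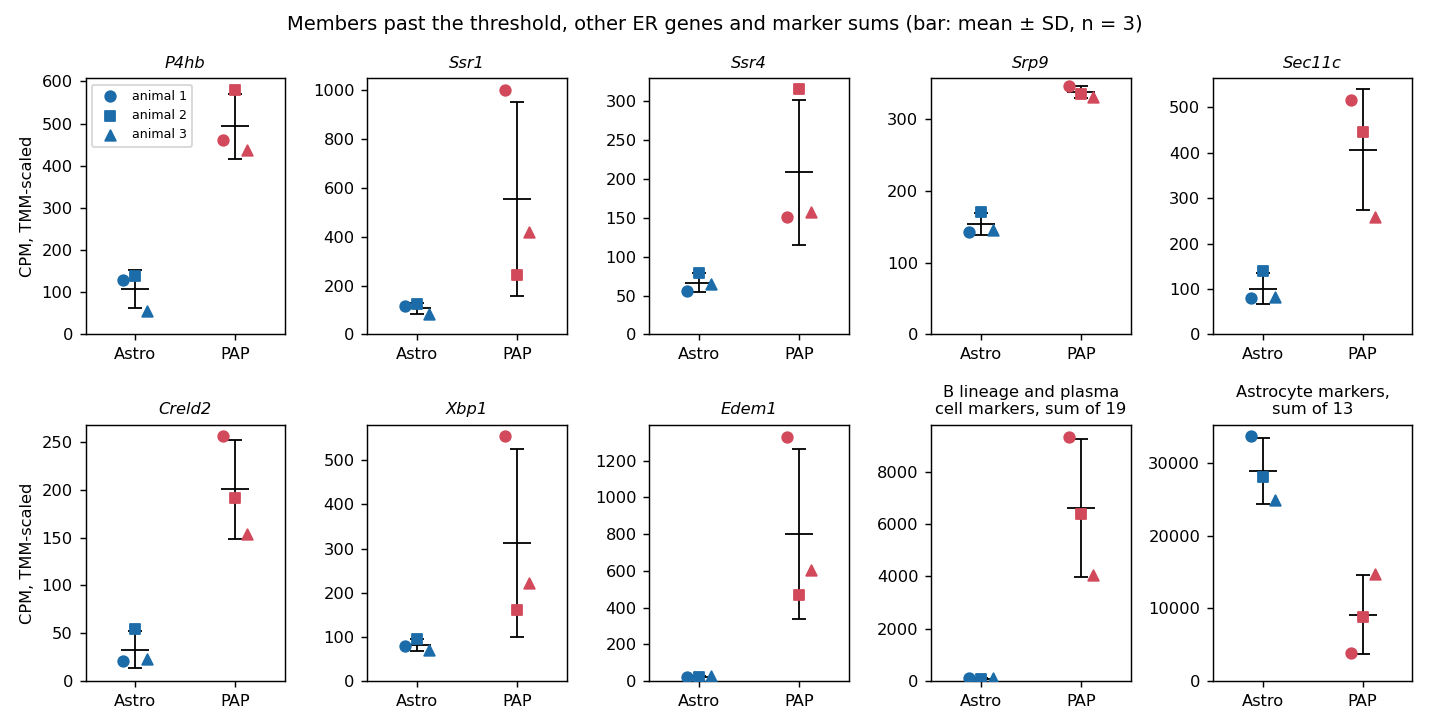
Level in each library (CPM, linear axes from 0) of the 5 members called higher in PAP, of Creld2, Xbp1 and Edem1 from the other ER genes, and of the summed B lineage and plasma cell and astrocyte markers; bars are mean ± SD over 3 animals. The B lineage and plasma cell sum is between 4070 and 9330 CPM in PAP and at most 103 CPM in Astro, and the astrocyte sum is lower in every PAP library.

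The wider ER pathway was read from lists of other genes for targeting and insertion, glycan transfer and trimming, folding, stress response and degradation, and membrane insertion. Of 75 listed genes, 74 were in the files and 70 were tested; 6 were called higher, 4 lower and 60 did not pass, with a median log2 fold change of -0.03. Over all tested genes 5.92% were called higher and 15.4% lower, so the count of higher calls was near the background. With the animal as a block, 1 was called higher, Edem1, and none lower. The higher calls were Edem1, Creld2, Krtcap2, Xbp1, Mlec and Wrb.

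Edem1, which hands misfolded glycoproteins to ER-associated degradation, stood at 22.5, 23.1 and 24.8 CPM in Astro and at 1330, 469 and 606 CPM in PAP. Its log2 fold change of 5.09 ± 0.51 passed in both fits (edgeR adjusted p = 0.00473, and 0.0204 with the block); without the Astro library of animal 1 it was at 0.0528, and without the PAP library of animal 1 the difference was 4.47. Xbp1, the transcription factor whose mRNA Ire1 splices, stood at 80.1, 95.2 and 69.1 CPM against 556, 160 and 223 CPM (1.94 ± 0.54, edgeR adjusted p = 0.0474, 0.206 with the block and 0.0583 without the PAP library of animal 1, where the difference was 1.19). Of the 11 genes called higher, members and other pathway genes together, 7 had their highest PAP value in animal 1, as did the B lineage and plasma cell sum: Ssr1, Srp9, Sec11c, Edem1, Xbp1, Creld2 and Krtcap2. Of these, 3 followed the full order of that sum (Srp9, Sec11c and Creld2), though the Srp9 values of 346, 335 and 330 CPM were nearly equal. P4hb and Ssr4 were highest in animal 2, and Mlec and Wrb in animal 3. Among all 37 members, called or not, 15 were highest in the PAP library of animal 1, 10 in that of animal 2 and 12 in that of animal 3. The shares over all tested genes were not taken. The part of the plasma cell markers' rise in the levels of Edem1 and Xbp1 was not tested. The counts do not separate spliced from unspliced Xbp1.

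Creld2, an ER stress-inducible folding factor, stood at 21.2, 54.8 and 22.5 CPM against 256, 192 and 154 CPM (2.61 ± 0.55, edgeR adjusted p = 0.0215, and 3.23 without the Astro library of animal 2, with 0.0864). Krtcap2, a further oligosaccharyltransferase subunit, had a log2 fold change of 1.61 ± 0.36 (edgeR adjusted p = 0.0237), and Mlec, or malectin, a lectin that binds glucosylated glycans beside that enzyme, 1.97 ± 0.55 (edgeR adjusted p = 0.0478). Wrb, a receptor subunit for tail-anchored proteins, had 1.81 ± 0.51 (edgeR adjusted p = 0.0494). With the block all 4 were at an adjusted p of 0.206, and Mlec and Wrb each lost the call without the PAP library of animal 1 or of animal 3 (Wrb had 1.15 without the latter). The other markers of the stress response did not pass: Atf4, the effector of the Perk branch, was at 91.7, 89.3 and 95.6 CPM against 118, 210 and 343 CPM (1.28 ± 0.46, edgeR adjusted p = 0.106), and Ddit3, the factor also called CHOP, at 39.7, 34.5 and 29.4 CPM against 3.57, 24.2 and 73.7 CPM (-0.03 ± 1.06, edgeR adjusted p = 0.993).

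Of the lower calls, 3 were subunits of the ER membrane protein complex, which inserts membrane helices that bypass Sec61. Emc2 stood at 233, 212 and 236 CPM in Astro and at 46.9, 49 and 46.6 CPM in PAP, a log2 fold change of -2.26 ± 0.33 (edgeR adjusted p = 0.0185). Emc1 and Emc8 had -3.37 ± 0.75 and -1.37 ± 0.35 (edgeR adjusted p = 0.0241 and 0.0351). In the list of 15 genes for this complex and for tail anchors, 8 had every PAP value below every Astro value, which held for 35.1% of all tested genes, and the median was -1.15, against -0.53 over all tested genes; with the block the medians were -1.3 and -1.63, in the opposite order. Mbtps2, the Golgi protease that releases Atf6, was at 0 counts in all 3 PAP libraries and at 4.23 ± 1.12 CPM in Astro, at least 2.74-fold lower against a limit of 3 counts per library (edgeR adjusted p = 0.0208). All 4 lower genes were at 0.206 with the block, none was called whichever Astro library was left out, and Emc8 also lost the call without the PAP library of animal 1 or 2.

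Within the Astro group, the members varied between animals more than other genes of at least 10 CPM did. The median coefficient of variation over the 3 Astro libraries was 31.8% for the members and 18.3% for the 9973 genes; in PAP it was 39.7% for the members and 88.2% for those genes. The members were also more abundant, with a median level of 132 CPM against 41.5 CPM. In 26 of the 37 members the Astro level was highest in animal 2, then animal 1, then animal 3, an order found in 18.4% of all tested genes. The order was not particular to the members. The other ER pathway genes summed to 5180, 6260 and 4330 CPM in Astro, and each of their lists had the same order in sum. These values are descriptions with no test.

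This pair of animals was chosen for a closer description after the order was seen, so the values that follow restate it by gene. The ratio of the Astro level in animal 2 to that in animal 3 had a median of 1.82 over the members and of 0.978 over 14528 tested genes. By role the medians were 2.69 for chaperones and disulfide isomerases (from 2.08 to 4.09), 2.01 for the oligosaccharyltransferase, 1.96 for stress sensors and J proteins, 1.75 for the signal peptidase, 1.54 for the translocon-associated complex, 1.29 for the channel and 0.866 for the signal recognition particle. All 8 chaperones and isomerases and all 6 oligosaccharyltransferase genes followed the order, and none of the 5 signal recognition particle genes did. The 6 members with an ERSE in the printed sequences all followed it, with ratios from 2.08 to 2.96 and a median of 2.66. Of the 24 members with no exact match in the window, 16 followed the order, and the median ratio of the 24 was 1.7. Among them Pdia4 (4.09), Pdia3 (3.07) and Stt3a (2.97) were above every ERSE gene. Of the 6 ERSE genes, 5 are chaperones or isomerases. Within that role the 3 genes without a match, Pdia3, Pdia4 and P4hb (2.5), lay in or above the range of the 5 with a match. As each ratio compares 1 library with another, it is a description of those animals and has no test, and the members share their libraries. Differences between the animals other than their number are not given in the labels.

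Between the compartments, the 6 ERSE genes had log2 fold changes from -1.14 (Dnajc3) to 0.75 (Canx) and none passed. Of the 5 called members, P4hb, Ssr1, Ssr4 and Srp9 had a promoter window with no exact match, and Sec11c had no entry. Length had no steady relation to the difference over the 37 members. Spearman's rho was 0.163 with exonic length and -0.0903 with the longest coding transcript, across genes, which share the same libraries.

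**Figure D4:**
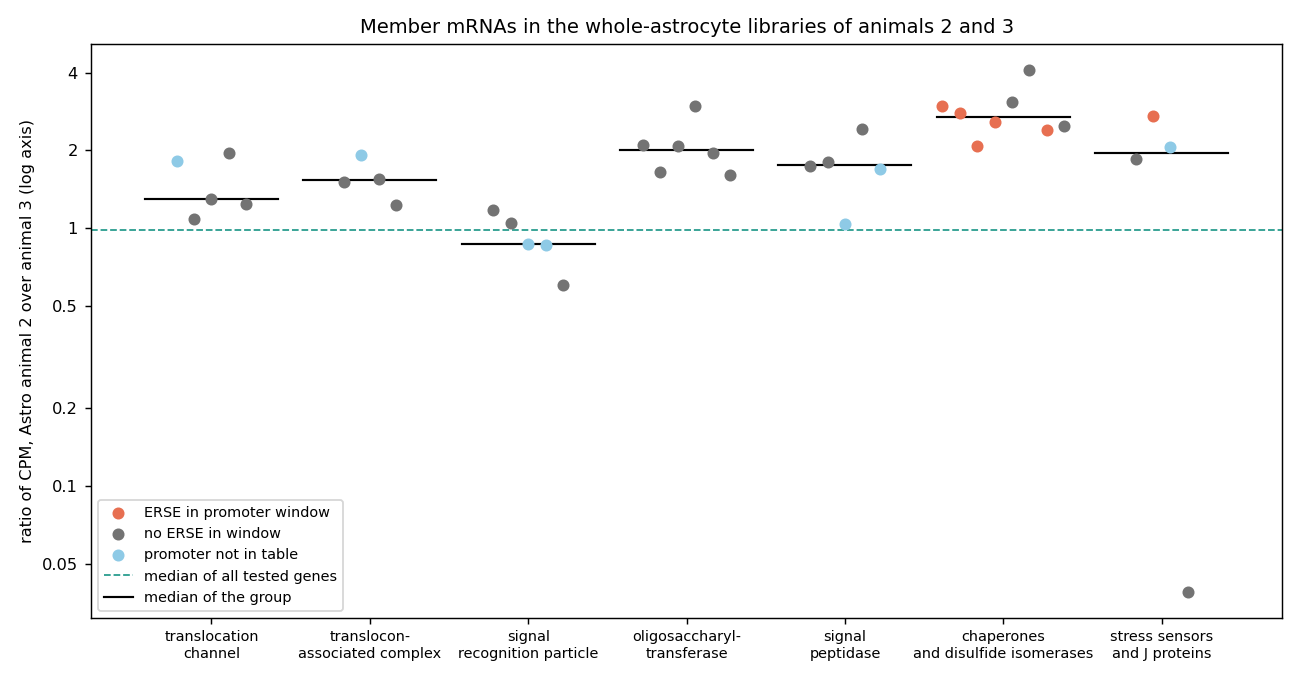
Ratio of CPM in the Astro library of animal 2 to that of animal 3 for each member (log axis), by role; orange points have an ERSE in the promoter window, grey points do not, light blue points have no promoter in the table, black bars are group medians and the dashed line is the median of all tested genes (0.978). All 8 chaperones and isomerases lie between 2.08 and 4.09, and the signal recognition particle genes lie around the dashed line.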

How the data were processed

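The authors deposited whole-number read counts per Ensembl gene for 48 samples. Per the submitters' processing notes, reads were handled with bcl2fastq 2.18.0.12, Trim Galore 0.4.1, STAR 2.5.2b, SAMtools and HTSeq 0.5.3 on mm10; the annotation release and the strand setting are not given in the sources used here, so reads from overlapping genes may be mixed. Per the labels' protocols, lysates passed an antibody-free column and a column of nonspecific mouse IgG before the pull-down, and cDNA was amplified with SMART-Seq v4 before Nextera XT libraries; no molecular identifiers are mentioned, so limits cover counting error only.

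Counts were summed over the 8 technical replicates, giving 6 libraries (n = 3 animals per compartment). Genes passing filterByExpr (minimum count 10) were tested with edgeR 4.0.16 (quasi-likelihood, TMM, compartment alone; R 4.3.3), adjusted by Benjamini-Hochberg over all genes tested, with a threshold of 0.05. The SE is the absolute log2 fold change divided by the square root of F. CPM are TMM-scaled. Levels per kilobase use exonic lengths of GENCODE M21, which held 99.12% of the identifiers. DESeq2 1.42.0 and limma 3.58.1 were alternatives. A run of the test on simulated data gave both groups the same spread, unlike these libraries, so it does not bear on the calls here. The labels give the same animal for both compartments, so the animal was also fitted as a block; same-animal deviations correlated at 0.0327, 0.0185 and -0.0272.

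Values in every library were given for members past the threshold, for Hspa5, Atf6 and Ern1 and for the most abundant member per kilobase of each role; further members with such values were added after their values were seen. Of the other pathway genes, those past the threshold, Xbp1, Atf4 and Ddit3 were named. The members and all lists were chosen with earlier results of these data known. Promoter sequences are from RefSeq (GRCm38.p6); both strands were searched.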

Additional observations from a re-analysis of the deposited data

How the results depend on the processing

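Over all genes the count of calls was 3115; it was 133 with the animal as a block, 5141 with the DESeq2 Wald test, 1688 at equal depth, and 115 to 4586 when 1 library was left out. Members called higher numbered 5, against 0 with the block, 10 with the DESeq2 Wald test, 1 (Ssr1) with limma voom and group weights, 2 without the filter on low counts (P4hb and Sec11c), and 0 to 7 when 1 library was left out; the calls were 0 whichever Astro library was left out. Members called lower numbered 0, against 1 with the DESeq2 Wald test and 0 to 1 when 1 library was left out; that 1 was Srp14 in both cases, the second without PAP animal 3. Other pathway genes called higher numbered 6, against 1 with the block, 15 with the DESeq2 Wald test, 1 with voom, 2 without the filter, and 0 to 7 when 1 library was left out. Those called lower numbered 4, against 0 with the block, 10 with the DESeq2 Wald test, 2 at equal depth, and 0 to 9 when 1 library was left out. The cause was not tested. The 5 called members kept their direction in all 15 alternatives, and the members' median stayed between 0.16 and 0.71; the median of all genes, -0.53, was -0.37 with library size alone, -0.46 with DESeq2 size factors, -0.22 at equal depth, -1.04 without the filter, -1.62 with voom and -1.63 with the block.

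Of the members and the other genes tried under every setting, those whose signs turned had not passed. With the block Srp68 had -0.08 and Atf6 -0.14; with voom Srp68 had -0.23, Pdia4 -0.18 and Atf6 -1.18; without the filter Calr had -0.01; Srp72 had 0.03 with library size alone and 0.06 at equal depth. Ddit3, another pathway gene, had 0.01 with DESeq2 size factors, 0.02 with the DESeq2 Wald test, 0.1 with library size alone, 0.26 at equal depth and -1.38 to 0.46 when 1 library was left out. When 1 library was left out, Sec63 ranged from -0.04 to 0.49, Srp68 from -0.58 to 0.50, Srp72 from -1.19 to 0.27, Ddost from -0.19 to 0.50, Stt3b from -1.01 to 0.19, Spcs2 from -0.26 to 0.75, Sec11a from -0.77 to 1.38, Calr from -0.07 to 0.71, Dnajb9 from -0.32 to 0.48 and Atf6 from -0.21 to 1.06. Of the members, 3 were at or below 3 counts in a PAP library (Stt3a, Atf6 and Pdia3); thinned to the smallest PAP total, the Astro libraries had 0, 1 and 0 such members.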
